A study of Homo sapiens with 10 samples.

Results

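The SOX factors considered here are SOX2, SOX4, SOX5, SOX6, SOX9 and SOX13, and the measurement is acetylation of histone H3 at lysine 27 (H3K27ac) at the chromatin regions assigned to them. A region was taken as a member when the gene symbol that the authors' annotation gave it was 1 of these 6 names. That rule found 18 regions among the 67387 annotated regions of the series, which are themselves part of 169637 regions counted. Each region was 502 bp wide. SOX13 held 8 regions, SOX4 held 6, SOX9 held 3 and SOX6 held 1, so 4 of the 6 factors had a region. SOX2 and SOX5 had 0 regions in the annotated table. By distance to the nearest annotated transcription start site (TSS), 6 of the 18 regions lay within 1 kb (promoter regions), 3 lay between 1 and 3 kb (flanking regions) and 9 lay farther away (distal regions). Distances in the text are to that nearest start, and the plots number each factor's regions in genomic order and give the distance of a region's middle from the gene's RefSeq start.

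The series profiled H1975, an established lung adenocarcinoma cell line that carries mutant EGFR, by chromatin immunoprecipitation and sequencing (ChIP-seq). The DMSO group was kept drug-free for 21 days and then given the solvent DMSO for 3 days. The drug-tolerant persister group (osi_DTP) received 500 nM osimertinib, an EGFR inhibitor, for 24 days. The combination group (combo) received 500 nM osimertinib for 21 days and then 150 nM AZD5153, a bivalent inhibitor of BET bromodomain proteins, for 3 days, and the labels do not say whether osimertinib was kept on during those last days. Each group had 3 libraries described as biological replicates, and 1 pooled input library completed the set. All groups are 1 cell line, and a change in which cells survived cannot be told apart here from a change within cells.

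SOX proteins bind the minor groove of DNA through a high-mobility-group box and bend it, and most act together with a partner factor. SOX2 belongs to the group of activators that keep stem and progenitor cells undifferentiated, SOX4 to the activators of progenitor growth and epithelial plasticity, SOX9 to the factors of the distal lung progenitor and of cartilage, and SOX5, SOX6 and SOX13 to a group that has no activation domain of its own and tunes the work of the others. H3K27ac marks active promoters and enhancers, and BET proteins are readers of acetylated histones.

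The reference sequence just before the start site is shown for the 3 factors whose RefSeq promoter window (GRCh38.p14, the hg38 build of the files) overlapped a counted region, because it is the stretch next to which their promoter H3K27ac was read. The SOX6 window also overlapped a region assigned to another gene, C11orf58 (chr11:16738579-16739080). Each line gives 250 bases upstream of the start, 5′ to 3′ on the gene's own strand, and capitals mark the matches, on either strand, to the SOX core ACAAT, to the CCAAT box and to the GC box GGGCGG. The SOX4 stretch is chr6:21593501-21593750 on the plus strand, the SOX13 stretch is chr1:204072865-204073114 on the plus strand and the SOX6 stretch is chr11:16738478-16738727 on the minus strand.
SOX4: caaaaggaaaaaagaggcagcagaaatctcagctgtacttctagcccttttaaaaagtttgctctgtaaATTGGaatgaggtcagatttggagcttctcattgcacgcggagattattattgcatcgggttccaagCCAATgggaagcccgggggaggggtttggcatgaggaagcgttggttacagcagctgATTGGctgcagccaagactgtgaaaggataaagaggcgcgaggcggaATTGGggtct
SOX13: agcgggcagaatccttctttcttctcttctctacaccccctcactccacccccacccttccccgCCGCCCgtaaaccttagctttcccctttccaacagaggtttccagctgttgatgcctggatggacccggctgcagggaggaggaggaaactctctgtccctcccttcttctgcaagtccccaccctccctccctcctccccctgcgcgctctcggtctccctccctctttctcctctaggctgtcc
SOX6: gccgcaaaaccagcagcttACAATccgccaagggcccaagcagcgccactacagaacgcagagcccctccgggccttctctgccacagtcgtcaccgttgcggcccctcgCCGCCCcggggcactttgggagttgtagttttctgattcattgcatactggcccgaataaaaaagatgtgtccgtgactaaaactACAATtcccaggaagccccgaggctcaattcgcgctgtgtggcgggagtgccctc
The windows differed in the letters they held. Over the full window of 250 bases before and 50 bases after the start, SOX4 held 4 CCAAT boxes, a letter string present in 34.6% of 35116 RefSeq promoter windows of this length, and 0 SOX cores or GC boxes. SOX6 held 2 SOX cores (found in 27.4% of windows) and 1 GC box (found in 45.0%), and SOX13 held 1 GC box and 0 SOX cores. The GC content was 49.3% for SOX4, 60.0% for SOX6 and 62.7% for SOX13, against a median of 58.7% over all windows. These are matches of letters, and no factor's binding was measured.

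The 9 H3K27ac libraries held between 6263443 and 10463351 reads in the counted regions, and the input had 1870885. Levels are given in CPM, the reads of a region relative to its library's total, scaled by edgeR's trimmed mean of M values (TMM). Spearman correlations between replicates across regions were 0.860 to 0.893 in DMSO and 0.806 to 0.821 in osi_DTP. In combo, replicates 1 and 2 correlated at 0.888, but the lowest pair was 0.367, and replicate 3 stood apart. The share of annotated counts in promoter regions was also uneven: it was 66.7% in combo replicate 3 and 59.8% in osi_DTP replicate 2, and between 40.3% and 45.9% in the other 7 libraries. Results that rest on combo replicate 3 are therefore given with and without it. Each cell type marker was read at 1 promoter region, the one of its promoter regions with the highest mean CPM. Of these markers, the epithelial KRT8, KRT7 and EPCAM carried promoter signal in all groups (mean over 9 libraries 70.6, 61.8 and 39.1 CPM). The epithelial KRT19, CDH1 and KRT18 were lower, at 30.1, 15.9 and 11.5 CPM, beside a median of 11.9 over annotated promoter regions. SFTPC, a lung surfactant gene, had no promoter region. The other lung lineage markers averaged, in DMSO, osi_DTP and combo, 11.7, 24.3 and 29.4 CPM for NKX2-1 and 7.53, 4.32 and 1.97 for SFTPB, and NAPSA lay between 13.60 and 31.5 CPM in DMSO, 9.77 and 13.58 in osi_DTP, and 5.80 and 20.8 in combo, with osi_DTP wholly above DMSO at NKX2-1 and wholly below it at NAPSA, and combo wholly below both other groups at SFTPB. Of 9 markers of other cell types, NEUROD1, COL3A1, PECAM1, PTPRC and TP63 had 0 promoter regions, whereas PDGFRB averaged 2.89 CPM in DMSO, 19.3 in osi_DTP and 29.9 in combo, COL1A1 was at 7.49, 24.7 and 18.8, CDH5 at 13.5, 19.8 and 18.1, and KRT5 at 7.20, 2.15 and 1.04. Their part in the SOX4 results was not tested.

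**Figure D1:**
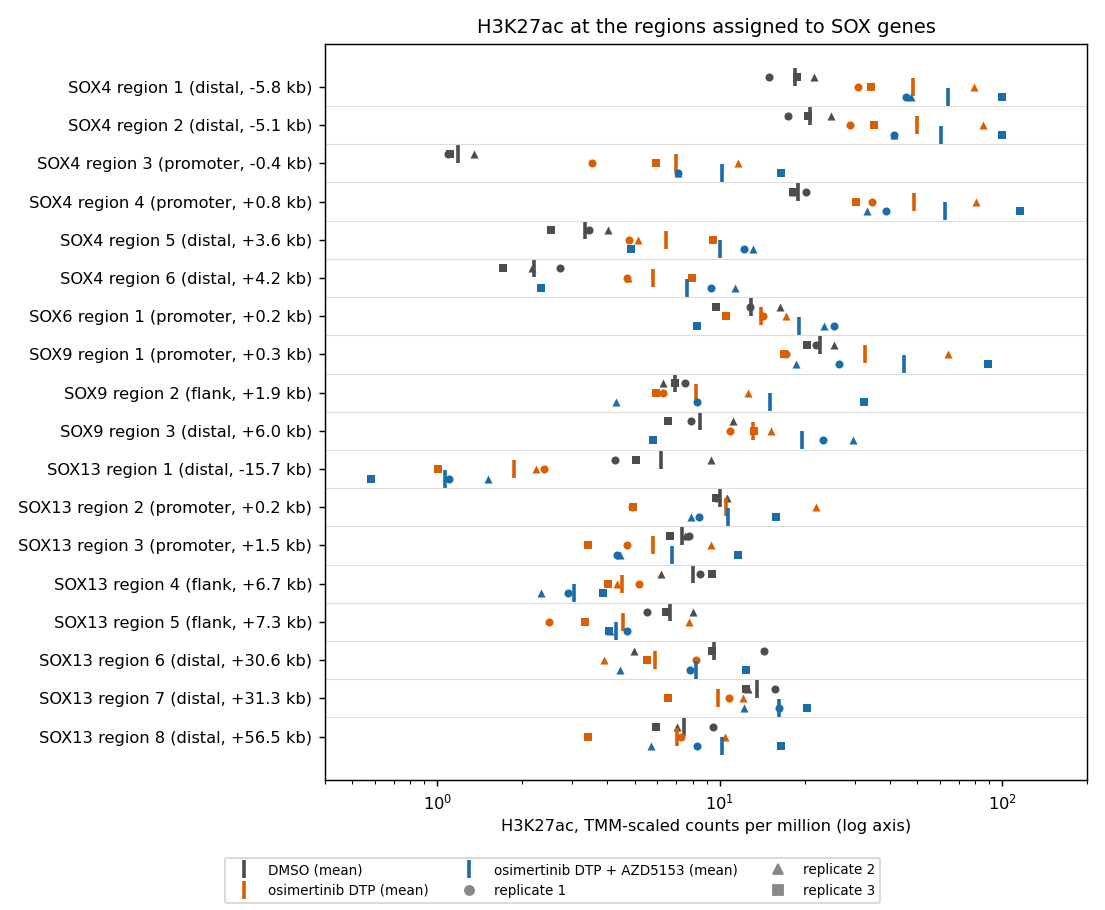
H3K27ac in TMM-scaled CPM (horizontal log axis) at the 18 SOX regions (rows), with 1 symbol per library, the symbol shape giving the replicate, the colour the group and an upright bar the group mean of 3 libraries. All 6 SOX4 regions sat higher in the osi_DTP libraries than in the DMSO libraries, whereas SOX13 region 1, the one at −15477 bp, sat lower.

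Each comparison was fitted with edgeR's quasi-likelihood test over 157919 regions that passed a filter on low counts, with Benjamini-Hochberg adjustment over all of them, and a region was called when its adjusted p was under 0.05. All 18 SOX regions passed the filter. Input counts at them were 6 to 19 reads, around the median of 10 over all regions. Between osi_DTP and DMSO, 1 of the 18 regions was called higher and 0 lower, where 5.58% of all tested regions were called higher and 5.13% lower. Between combo and DMSO, 3 were called higher and 1 lower, where 9.05% of all regions were higher and 9.01% lower. Between combo and osi_DTP, 0 were called in either direction, and 0% of all regions were called higher and 0% lower. That comparison had 0 SOX regions at an unadjusted p under 0.05, DESeq2 also called 0 of them, and over all regions edgeR called 0 with 7013 at an unadjusted p under 0.05 whereas DESeq2 called 18 higher and 68 lower. The osi_DTP and combo comparisons against DMSO share the DMSO libraries, so they are not independent of each other. With all 9 libraries the calls over all regions were 8814 higher and 8107 lower in osi_DTP, and 14286 and 14232 in combo. Without DMSO replicate 1, 2 or 3 they were 3608, 668 and 1324 higher and 4616, 482 and 1836 lower in osi_DTP. In combo they were then 7632, 3943 and 4172 higher and 9615, 4526 and 5843 lower. Without combo replicate 3 they rose to 22942 higher and 20489 lower in osi_DTP, and 29786 and 27986 in combo.

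SOX4 carried the gains. Its locus held some of the strongest of all annotated distal signal: the regions at −5547 bp and −4867 bp from the TSS, both in an intron of an overlapping annotated transcript, ranked at percentile 99.0 of the 36543 distal regions by mean CPM, and the promoter region at +523 bp ranked at percentile 96.3 of 24296 promoter regions. A second promoter region, at −175 bp, was weak, at percentile 21.9.

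The weak SOX4 promoter region, chr6:21593075-21593576, overlaps the sequence printed above. It held 12, 13 and 11 reads in the DMSO libraries, 37, 83 and 59 in osi_DTP and 71, 61 and 85 in combo, and 12 in the input. Scaled to CPM, DMSO was 1.18 ± 0.142 (SD, n = 3), osi_DTP 7.01 ± 4.11 and combo 10.2 ± 5.38. Every osi_DTP and combo library was above every DMSO library, and MACS2 peaks covered the region in 0 of 3 DMSO, 3 of 3 osi_DTP and 3 of 3 combo libraries. The fold enrichment of these peaks was 86.4 in osi_DTP replicate 2 and 98.8 in combo replicate 3. Those are the same values as at the strong region at +523 bp. In the remaining drug-treated libraries it was 4.18 to 6.29. The log2 fold change was 2.55 ± 0.63 (SE) in osi_DTP (adjusted p = 0.0172, edgeR quasi-likelihood test) and 3.09 ± 0.64 in combo (adjusted p = 0.00451). The combo call remained without each library in turn, and was 2.57 (adjusted p = 0.000703) without combo replicate 3. The osi_DTP call was lost without DMSO replicate 1, 2 or 3, at an adjusted p of 0.0717, 0.0939 and 0.10. The log2 fold change was then 2.49, 2.71 and 2.50, and calls over all regions fell too. The call was also lost without osi_DTP replicate 2, at a log2 fold change of 2.05 (adjusted p = 0.0814).

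The strong SOX4 promoter region, chr6:21594274-21594775, lies inside the gene. Its values in CPM were 20.22, 18.18 and 18.10 in DMSO, 34.51, 80.85 and 30.21 in osi_DTP, and 38.87, 33.16 and 115.58 in combo. The groups did not overlap with DMSO, but osi_DTP replicate 2 and combo replicate 3, the libraries with the high promoter share, were higher than any other library, and the part of that share in the result was not tested. The log2 fold change was 1.36 ± 0.58 in osi_DTP (adjusted p = 0.139) and 1.73 ± 0.58 in combo (adjusted p = 0.0473, called). Without combo replicate 3 the combo value was 0.93 (adjusted p = 0.119), so this call depended on that library, and it was also lost without any 1 DMSO replicate, without osi_DTP replicate 1 or 3 and without combo replicate 1.

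Upstream, the region at −5547 bp (chr6:21587703-21588204) was 14.87, 21.58 and 18.81 CPM in DMSO, 30.78, 79.18 and 34.34 in osi_DTP, and 45.59, 47.35 and 99.73 in combo. All 6 drug-treated libraries were above the 3 DMSO libraries, with osi_DTP replicate 2 and combo replicate 3 again the highest of their groups. Its log2 fold change was 1.38 ± 0.54 in osi_DTP (adjusted p = 0.106) and 1.80 ± 0.54 in combo (adjusted p = 0.0292, called). The combo call remained without combo replicate 3, at 1.33 (adjusted p = 0.0279), and was lost without any 1 DMSO replicate, where the adjusted p ran from 0.103 to 0.127. Its neighbour at −4867 bp (chr6:21588383-21588884) averaged 20.9 ± 3.65 CPM in DMSO, 49.9 ± 31.1 in osi_DTP and 60.6 ± 33.5 in combo, and missed the threshold in both comparisons (log2 fold change 1.26 ± 0.55, adjusted p = 0.158, and 1.54 ± 0.56, adjusted p = 0.0640).

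At the other end of the gene, 2 regions lay in the SOX4 3′ UTR as annotated, and there a different set of libraries was high. The region at +3340 bp (chr6:21597091-21597592) was 3.45, 4.03 and 2.51 CPM in DMSO, 4.78, 5.15 and 9.47 in osi_DTP, and 12.12, 13.15 and 4.83 in combo. The region at +3950 bp (chr6:21597701-21598202) was 2.72, 2.17 and 1.71 CPM in DMSO, 4.68, 4.73 and 7.96 in osi_DTP, and 9.32, 11.29 and 2.32 in combo. Here combo replicate 3 was the lowest combo library, and at +3950 bp it lay within the DMSO range, so the height of the SOX4 signal in osi_DTP replicate 2 and combo replicate 3 was not shared by the whole locus. Neither region was called (combo against DMSO 1.60 ± 0.57, adjusted p = 0.0608, and 1.80 ± 0.62, adjusted p = 0.0507). Without combo replicate 3, both were called in combo against DMSO, and 4 SOX4 regions not called with it (those at −5547, −4867, +523 and +3950 bp) were called in osi_DTP against DMSO. This rise in calls was not particular to SOX4. Of 161758 regions tested without that library, 22942 were called higher and 20489 lower in osi_DTP, and 29786 and 27986 in combo. With it, 8814 and 8107 of 157919 were called in osi_DTP, and 14286 and 14232 in combo.

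SOX4 therefore held all 6 of the regions whose osi_DTP libraries lay wholly above the DMSO libraries, among the 18, and 5 regions did so in combo. Over all tested regions such separation occurred for 20.2% in osi_DTP and 14.4% in combo. The 6 SOX4 regions are 1 locus, from −5547 to +3950 bp, and some held peaks of the same value, so they are not 6 separate observations. By class, the called regions at −175 bp and +523 bp are promoter regions, of which 2.78% were called higher and 1.85% lower in osi_DTP over all annotated promoter regions, and 5.32% and 3.18% in combo. The called region at −5547 bp is distal, where 9.79% were called higher and 10.8% lower in osi_DTP, and 14.3% and 16.1% in combo.

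**Figure D2:**
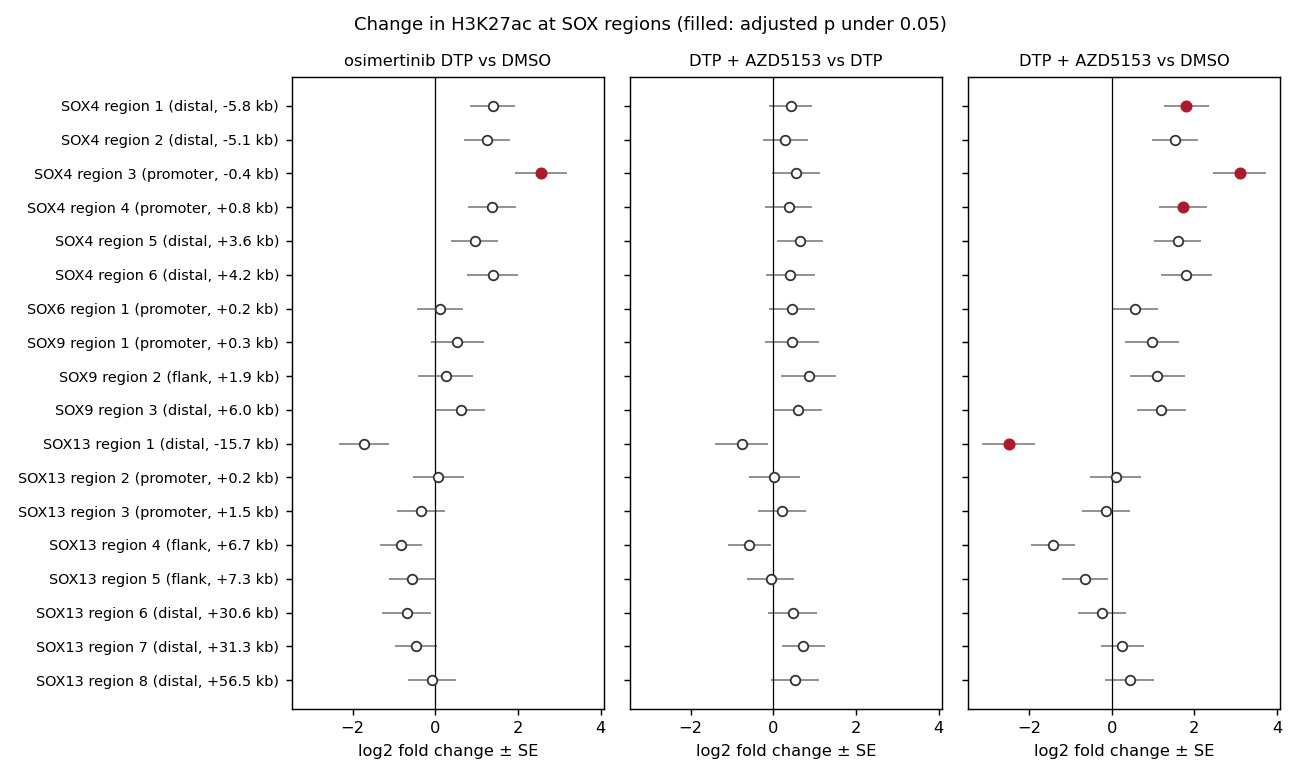
Log2 fold change (horizontal axis, with its standard error from the edgeR fit as the bar) of each SOX region (rows) in osi_DTP against DMSO, combo against osi_DTP and combo against DMSO, with filled red points for an adjusted p under 0.05. The SOX4 regions lay above 0 in all 3 panels, from 0.96 to 2.55 in the first, and no point was called in the combo against osi_DTP panel.

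SOX9, the factor of lung progenitors and of cartilage, had 3 regions and 0 calls. Its promoter region (chr17:72121079-72121580, +59 bp) ranked at percentile 90.1 of promoter regions and was 21.86, 25.40 and 20.32 CPM in DMSO, 17.21, 64.15 and 16.82 in osi_DTP, and 26.35, 18.62 and 89.10 in combo. Apart from osi_DTP replicate 2 and combo replicate 3, the drug-treated libraries lay between 16.82 and 26.35 and overlapped the DMSO libraries. The log2 fold change of 0.54 ± 0.65 in osi_DTP (adjusted p = 0.670) and of 0.98 ± 0.65 in combo (adjusted p = 0.321) rested on those libraries: without osi_DTP replicate 2 the first was −0.35, and without combo replicate 3 the second was −0.0086. The flanking region at +1630 bp (chr17:72122650-72123151) had the same high libraries, with 12.52 CPM in osi_DTP replicate 2 and 32.47 in combo replicate 3 and 4.30 to 8.32 in the other 7.

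The distal SOX9 region, at +5776 bp in an intron of the antisense gene SOX9-AS1 (chr17:72126796-72127297), ranked at percentile 81.6 of distal regions and had other libraries high. It was 7.89, 11.15 and 6.54 CPM in DMSO, 10.90, 15.17 and 13.19 in osi_DTP, and 23.24, 29.55 and 5.80 in combo. Combo replicates 1 and 2 were above every other library, and combo replicate 3 was the lowest of all 9. In combo against DMSO the log2 fold change was 1.20 ± 0.59 (adjusted p = 0.175), and without combo replicate 3 it was 1.62 (adjusted p = 0.00725).

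SOX5, SOX6 and SOX13, the group without an activation domain, had 0, 1 and 8 regions, and 0 of these were called higher. Over all tested regions 5.58% were called higher in osi_DTP and 9.05% in combo. With so few regions, 0 calls does not set this group apart. The single SOX6 region, its promoter (chr11:16738064-16738565, +78 bp, percentile 60.3), was 12.79, 16.32 and 9.65 CPM in DMSO, 14.25, 17.12 and 10.47 in osi_DTP, and 25.25, 23.39 and 8.31 in combo. Combo replicates 1 and 2 were the highest and combo replicate 3 the lowest of the 9 libraries. It differed from DMSO by a log2 fold change of 0.11 ± 0.55 in osi_DTP (adjusted p = 0.935) and 0.56 ± 0.55 in combo (adjusted p = 0.529). Without combo replicate 3 the combo value was 0.91 (adjusted p = 0.117), and with voom and library weights it was 1.07 (adjusted p = 0.0105).

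The 1 called loss among the 18 regions, in combo against DMSO, was of SOX13. In that comparison 9.01% of all tested regions and 16.1% of annotated distal regions were called lower. The region at −15477 bp (chr1:204057137-204057638, distal intergenic, percentile 8.55 of distal regions) held 47, 90 and 50 reads in DMSO, 25, 16 and 10 in osi_DTP, and 11, 13 and 3 in combo, with 8 in the input. In CPM this was 6.20 ± 2.71, 1.87 ± 0.756 and 1.06 ± 0.467 (SD, n = 3 each). Every drug-treated library was below every DMSO library, and peaks covered the region in 3 of 3 DMSO libraries and in 0 of 6 drug-treated ones. The log2 fold change was −1.72 ± 0.60 in osi_DTP (adjusted p = 0.0746, not called, and 0.0109 without combo replicate 3) and −2.49 ± 0.64 in combo (adjusted p = 0.0129, called). The combo call was lost without DMSO replicate 2, at −2.07 (adjusted p = 0.0912), and it remained without combo replicate 3 at −2.24 (adjusted p = 0.00512).

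A second SOX13 region, the flanking one at +1455 bp from an internal start (chr1:204079584-204080085), was 8.52, 6.20 and 9.35 CPM in DMSO, 5.16, 4.31 and 4.03 in osi_DTP, and 2.91, 2.33 and 3.87 in combo. Each group lay below the one before it without overlap, yet the test did not reach the threshold (−0.83 ± 0.51, adjusted p = 0.336, in osi_DTP, and −1.41 ± 0.53, adjusted p = 0.0711, in combo). Without combo replicate 3 the combo value was −1.62 (adjusted p = 0.0126). The strongest distal SOX13 region, at −8295 bp (chr1:204104120-204104621, intronic, percentile 80.3), went the other way in combo: it was 15.69, 12.60 and 12.37 CPM in DMSO, 10.80, 12.11 and 6.55 in osi_DTP, and 16.23, 12.22 and 20.29 in combo. All its osi_DTP libraries lay below both other groups, with log2 fold changes of −0.47 ± 0.52 against DMSO (adjusted p = 0.635) and 0.73 ± 0.52 for combo against osi_DTP (adjusted p = 1.00).

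The SOX13 promoter itself gave no call. The region at its start (chr1:204073052-204073553, percentile 44.1), which overlaps the printed sequence, was 9.70, 10.64 and 9.65 CPM in DMSO, 4.88, 21.85 and 4.93 in osi_DTP, and 8.42, 7.91 and 15.85 in combo. Osi_DTP replicate 2 and combo replicate 3 were again the highest, the osi_DTP libraries lay on both sides of the DMSO libraries, and the log2 fold changes were 0.07 ± 0.62 and 0.09 ± 0.62. The 4 remaining SOX13 regions had log2 fold changes of −0.69 to −0.09 in osi_DTP and of −0.64 to 0.43 in combo, none called.

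In osi_DTP against DMSO, 3 of the 18 regions lay wholly below DMSO, all of SOX13 (those at −15477, +1455 and −8295 bp), where 18.9% of all regions did so. In combo against DMSO 3 did so, all of SOX13, where 19% of all regions did. In combo against osi_DTP 1 region lay wholly above (2.83% of all regions) and 1 wholly below (5.4%), both of SOX13.

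Over the 18 regions the median log2 fold change was 0.18 in osi_DTP against DMSO, beside 0.15 over all tested regions. It was 0.77 in combo against DMSO, beside 0.23, and 0.43 in combo against osi_DTP, beside 0.06. The combo medians of the 18 regions, by class too, include combo replicate 3 and were not taken without it. Without that library the median over all tested regions was −0.11 in combo against DMSO and −0.17 in combo against osi_DTP. Single regions then moved both ways in combo against DMSO. The SOX4 region at +523 bp fell from 1.73 to 0.93, and the one at +3340 bp rose from 1.60 to 1.91. By class in combo against DMSO, the median was 0.77 for the 6 promoter regions beside 0.42 for all annotated promoter regions, 1.20 for the 9 distal regions beside 0.03, and −0.64 for the 3 flanking regions beside 0.05. Against DMSO all 6 SOX4 regions lay above 0 and most SOX13 regions lay below it, so the medians mix loci of opposite sign. Fold changes against DMSO carry a shift that depends on scaling: scaled by library size alone, the median over all regions was 0.06 in osi_DTP and −0.02 in combo, and the calls in combo against DMSO split into 9564 higher and 15152 lower, where TMM gave 14286 and 14232. The SOX4 regions lay above 0 against DMSO under every scaling tried.

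Counts were also summed per gene and class over its promoter or its distal regions. The 20438 sums were tested in the same way, with library sizes and TMM factors taken anew from the sums. The SOX4 distal sum (4 regions) was 63.6, 65.7 and 73.3 CPM in DMSO, 116.6, 156.7 and 159.9 in osi_DTP, and 158.9, 154.3 and 215.7 in combo. The groups were apart from DMSO without overlap. The spread within groups was smaller than at the single regions, but the scaling differed too. The TMM factor of osi_DTP replicate 2 was 1.09 for the sums and 0.78 for the regions, and that of combo replicate 3 was 1.07 and 0.84. The CPM of a sum is therefore not the added CPM of its regions, and the part of the scaling in the smaller spread was not tested. The log2 fold change was 1.10 ± 0.25 in osi_DTP (adjusted p = 0.0301, edgeR quasi-likelihood test) and 1.38 ± 0.26 in combo (adjusted p = 0.00853). With the replicate number as a block, which applies to osi_DTP and DMSO because same-numbered libraries deviated together, the osi_DTP value was 1.09 (adjusted p = 0.0623). The osi_DTP call was also lost without any 1 DMSO or osi_DTP library, where the adjusted p ran from 0.0569 to 0.144, and the combo call was lost without DMSO replicate 2 (adjusted p = 0.0535). Over all sums the osi_DTP calls fell from 810 higher and 1001 lower to 0 and 0 without DMSO replicate 2 or 3, so no sum was called there. The combo calls fell from 1383 and 1783 to 290 and 661 without DMSO replicate 2.

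The SOX4 promoter sum (2 regions) was 35.3, 24.5 and 32.3 CPM in DMSO, 64.1, 82.9 and 66.6 in osi_DTP, and 67.5, 54.9 and 138.1 in combo. Its log2 fold change was 1.21 ± 0.36 in osi_DTP (adjusted p = 0.0683) and 1.50 ± 0.36 in combo (adjusted p = 0.0235, called), and the combo call was lost without any 1 DMSO replicate. The sums of SOX6, SOX9 and SOX13 gave 0 calls, from −0.70 for the SOX13 distal sum to 0.56 for the SOX9 distal sum in osi_DTP, and from −0.35 to 1.08 for the same sums in combo. Without combo replicate 3, the SOX6 promoter sum was called higher in combo against DMSO at 0.86 (adjusted p = 0.0445, from 0.43 with it). So was the SOX9 distal sum at 1.58 (adjusted p = 0.00519, from 1.08 with it). Each of these sums is 1 region with the same counts as above, fitted with another scaling and spread. In the fit of regions without that library, SOX6 was not called (0.91, adjusted p = 0.117) and SOX9 was (1.62, adjusted p = 0.00725). Over all 20438 sums, 3.96% were higher and 4.9% lower in osi_DTP, 6.77% and 8.72% in combo against DMSO, and 0% and 0% in combo against osi_DTP.

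AZD5153 after osimertinib was compared with osimertinib alone at every SOX region, and no difference passed the test. At the 6 SOX4 regions the log2 fold changes of combo against osi_DTP were 0.28 to 0.64 with standard errors of 0.53 to 0.59, so changes of this size could not be told from 0 with these libraries. Of the 18 regions 15 were above 0, and those below were all SOX13 regions, where the median over all tested regions was 0.06. These signs rested on combo replicate 3. Without it the SOX4 regions at −5547, −4867 and +523 bp were −0.052, −0.27 and −0.43. The SOX9 regions at +59 and +1630 bp were −0.54 and −0.38, and the SOX13 regions at the start, +320 and +6995 bp also fell below 0. The other SOX4, SOX6 and SOX9 regions stayed between 0.028 and 1.01. The median over all tested regions was then −0.17. The SOX4 distal sum differed by 0.29 ± 0.25.

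**Figure D3:**
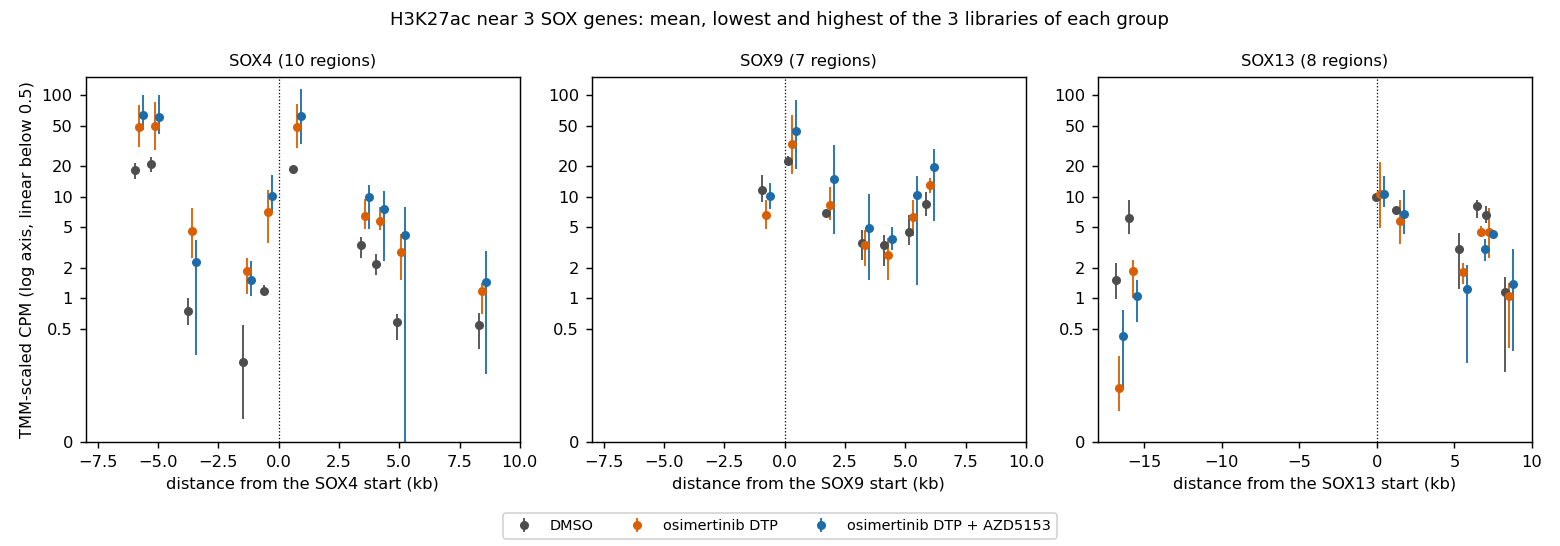
H3K27ac in TMM-scaled CPM (log axis, linear below 0.5) at every counted region near the SOX4, SOX9 and SOX13 starts (10, 7 and 8 regions, those outside the annotated table included), placed by distance from the RefSeq start in kb with the groups drawn side by side, with the mean as a point and the lowest and highest of 3 libraries as the bar for each group. At SOX4 the osi_DTP and combo means sat above the DMSO mean at all 6 member regions, and at SOX9 the bars of the groups overlapped at the promoter.

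The SOX2 locus had little signal. Within 200 kb of its start 6 regions had been counted, none in the annotated table, and 5 were tested with 0 calls. The nearest (chr3:181712830-181713331, 1155 bp from the start) held 31, 19 and 19 reads in DMSO, 21, 5 and 1 in osi_DTP, and 8, 1 and 15 in combo, with 5 in the input. The DMSO libraries were higher on average but overlapped the others (−1.23 ± 0.93, adjusted p = 0.453, in osi_DTP, and −0.89 ± 0.94, adjusted p = 0.562, in combo). Around SOX5, 2 regions were counted within 200 kb and the nearer was 192116 bp away. The farther of them, and the only 1 tested (chr12:24755167-24755668), held 1, 3 and 1 reads in DMSO, 12, 9 and 12 in osi_DTP, and 27, 23 and 5 in combo, and was higher in combo (3.60 ± 0.88, adjusted p = 0.0107) but not called in osi_DTP (2.77 ± 0.88, adjusted p = 0.0520). The combo call was lost without DMSO replicate 1 or 3 (adjusted p = 0.0523 and 0.0692). With the replicate block the osi_DTP value was 2.86 (adjusted p = 0.0453) and passed the threshold.

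The wider neighbourhoods, taken as 200 kb to either side of each start after the values had been seen, ran in different directions. Over all tested regions, 5.58% were called higher and 5.13% lower in osi_DTP, and 9.05% and 9.01% in combo against DMSO. Around SOX4, 37 tested regions had 8 higher and 0 lower in osi_DTP and 12 higher and 4 lower in combo, with medians of 1.38 and 1.60. The count depended on the libraries: without combo replicate 3 it was 18 higher and 4 lower in osi_DTP, and 19 higher and 5 lower in combo. Without DMSO replicate 1, 2 or 3 it was 2, 0 and 0 higher in osi_DTP, and 8, 3 and 2 higher in combo. Without osi_DTP replicate 1, 2 or 3 it was 4, 0 and 3 higher in osi_DTP, and without combo replicate 1 it was 8 higher in combo. The median over these tested regions stayed between 1.22 and 1.61 in osi_DTP and between 1.40 and 1.77 in combo under every alternative. The largest osi_DTP change in this window was at a promoter of CASC15, a long noncoding RNA gene, 70706 bp downstream (chr6:21664207-21664708), with 8, 3 and 6 reads in DMSO, 38, 110 and 33 in osi_DTP, and 76, 82 and 141 in combo. Every drug-treated library was above DMSO there, at 3.71 ± 0.79 (adjusted p = 0.00901, lost without DMSO replicate 2 or 3 or osi_DTP replicate 2) and 4.71 ± 0.82 (adjusted p = 0.00200).

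Around SOX9 the sides parted. Upstream, where the long noncoding RNA gene LINC01152 is annotated, 9 of 16 counted regions were lower in osi_DTP and 11 in combo, with medians of −2.99 and −3.66. Downstream, 0 of 15 were called in osi_DTP, and 2 were higher in combo. Of all tested regions, 5.58% were higher and 5.13% lower in osi_DTP, and 9.05% and 9.01% in combo. Without combo replicate 3 the upstream counts were 13 and 11 lower, and the downstream counts 1 lower in osi_DTP and 8 higher in combo. The upstream count in osi_DTP was 2 without DMSO replicate 2 and 5 without osi_DTP replicate 3, and the downstream count in combo was 0 without DMSO replicate 1 or 2 or combo replicate 1 and 1 without DMSO replicate 3. A region at −125029 bp (chr17:71995741-71996242) held 61, 104 and 58 reads in DMSO, 1, 0 and 2 in osi_DTP, and 3, 4 and 2 in combo, with 7 in the input. The drug-treated libraries were at the level of the input there or below it, and the difference was called in both comparisons (−5.94 ± 0.82, adjusted p = 0.00273, and −4.22 ± 0.72, adjusted p = 0.00178), also without each library in turn.

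The other 2 neighbourhoods had few calls. Around SOX6, 51 tested regions had 0 higher and 3 lower in osi_DTP, and 1 higher and 3 lower in combo. Around SOX13, 38 tested regions had 1 higher and 2 lower in osi_DTP, and 0 higher and 3 lower in combo. The shares over all tested regions were 5.58% higher and 5.13% lower in osi_DTP, and 9.05% and 9.01% in combo.

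**Figure D4:**
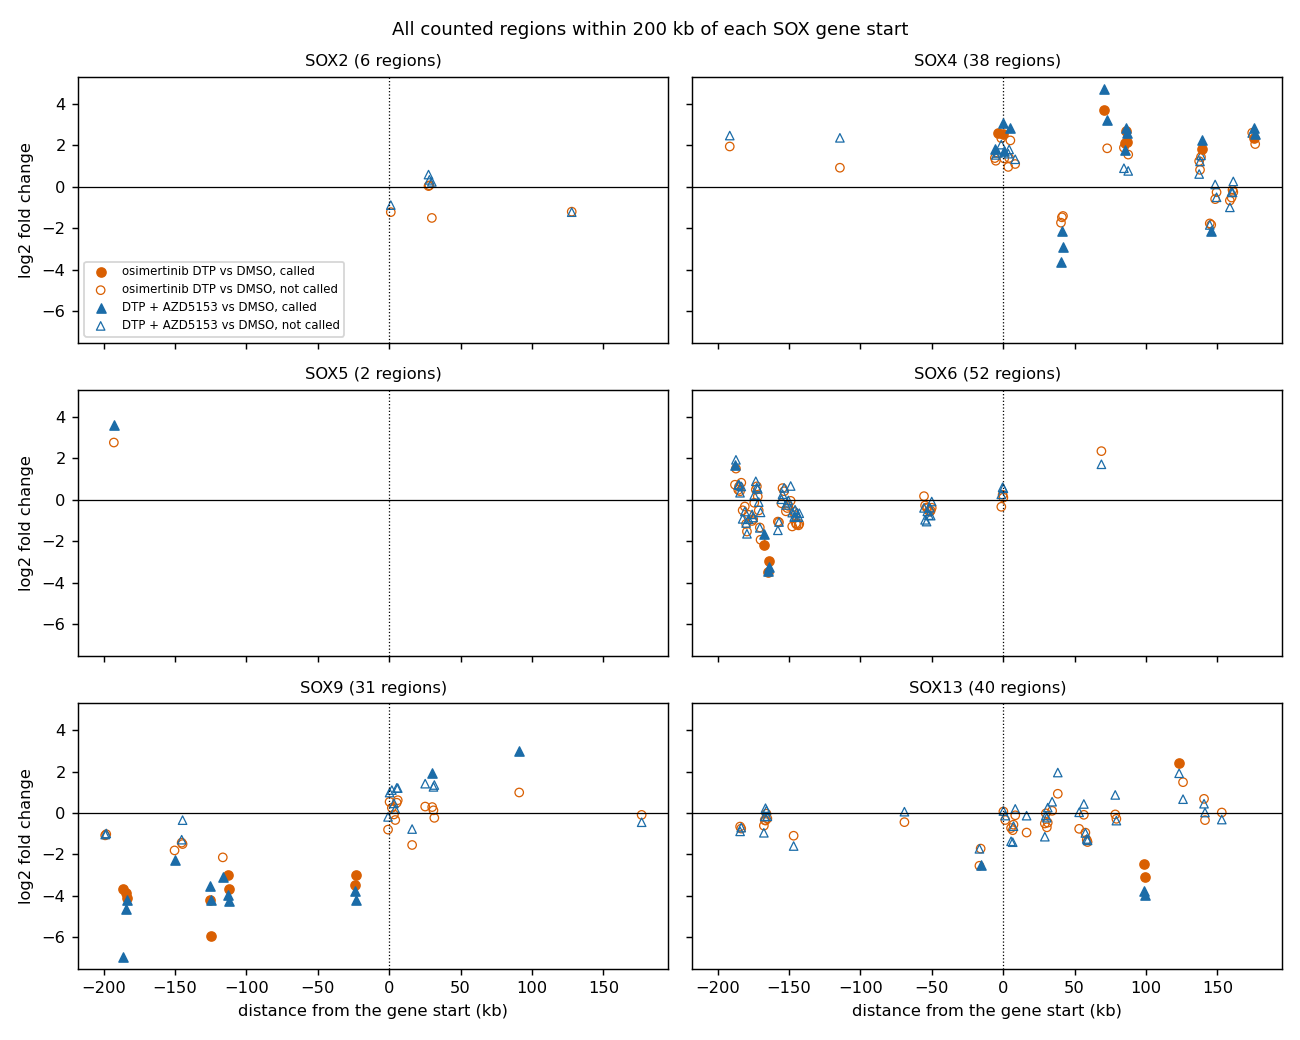
Log2 fold change against DMSO (vertical axis) of the tested regions within 200 kb of each SOX start, by distance from the start in kb, with orange circles for osi_DTP, blue triangles for combo and filled symbols for an adjusted p under 0.05. Filled symbols lay mostly above 0 around SOX4 and below 0 upstream of SOX9.

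Related genes were read from 3 lists. Of 14 other SOX family genes, 4 had regions (SOX8, SOX12, SOX15 and SOX18, 8 regions), with 0 called in osi_DTP and 1 higher in combo, a distal region of SOX8 (chr16:1003033-1003534) with 17, 20 and 18 reads in DMSO, 19, 32 and 12 in osi_DTP, and 44, 75 and 114 in combo. In CPM its combo libraries were above every DMSO library and overlapped osi_DTP (log2 fold change against DMSO 2.68, adjusted p = 0.0136), and the call was lost without any 1 DMSO replicate (adjusted p 0.0617 to 0.0703). Of 7 RNA genes at SOX loci, 3 had regions (18 in all), with 6 lower in osi_DTP and 1 higher and 7 lower in combo, and LINC01152 gave 5 and 6 of the lower calls (2 and 4 without DMSO replicate 2, and 8 and 6 without combo replicate 3). Of 13 genes for partners, regulators and targets of SOX factors, 8 had 63 regions, with 0 higher and 6 lower in osi_DTP, 2 higher and 8 lower in combo, and medians of −0.08 and −0.04. Among all tested regions, 5.13% were lower in osi_DTP and 9.01% in combo, and among annotated distal regions 10.8% and 16.1%. Between combo and osi_DTP the edgeR test called 0 regions of the 3 lists, whereas voom with library weights called 3 higher among the RNA genes and 1 higher and 1 lower among the other SOX genes. Over all 157919 regions voom called 2564 higher and 2442 lower in that comparison.

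The promoter sums whose pattern over the 9 libraries was most like that of each factor were found by Pearson's r of log2 CPM among 12294 genes, as a description over libraries that share their promoter share. For SOX4 they were SEMA6C (r = 0.992), DUSP16 (0.991) and ZNF823 (0.991). For SOX9 they were NINL (0.993), TMEM64 (0.988) and FHOD1 (0.974), for SOX6 AKNAD1 (0.990), PCDHB16 (0.987) and SLC18B1 (0.983), and for SOX13 TEX22 (0.960), CCP110 (0.959) and PCOLCE2 (0.956).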

How the data were processed

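H3K27ac ChIP-seq was carried out on H1975 cells fixed with 1% formaldehyde and read as 75 nt single-end reads. Per the labels and the submitters' processing notes, BWA 0.7.17 aligned reads to hg38, MACS2 2.2.6 called peaks, featureCounts 2.0.0 counted reads and ChIPseeker 1.29.1 annotated regions. Their order and settings are not given in the sources used here. The values deposited by the authors are raw read counts per region, without normalization. The peak lists deposited by the authors give fold enrichment and −log10 q for each library, and were used for peak overlaps alone. No H3K27ac count exceeded 1148, where 1 read per position and strand would allow 1152, and the highest SOX count was 615.

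Counts were tested with edgeR 4.0.16 (R 4.3.3; TMM scaling, filterByExpr, quasi-likelihood test, all 9 libraries in 1 fit) and adjusted by the Benjamini-Hochberg method over all regions. Alternatives used DESeq2 1.42.0 and limma 3.58.1 (voom with library weights), and the scripts were tested on simulated data. Replicates differed beyond sampling noise (lowest chi-square per degree of freedom 4.19). The correlation of deviations from group means between same-numbered libraries was 0.348, 0.367 and 0.340 for osi_DTP and DMSO, so these were taken as paired. It was −0.00821, 0.549 and 0.354 for combo and DMSO, and 0.266, −0.00599 and −0.27 for combo and osi_DTP, which were not. The block value is given beside named regions and sums whose call it changes in osi_DTP against DMSO.

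The 6 factors and the gene lists were chosen with earlier results of these data known. Regions named for a factor were its strongest promoter and distal region and every called region, and others were named after their values were seen. Nothing identifies separate cultures beyond the word replicate in the labels, so p-values measure the spread between these libraries. With 3 libraries against 3 an exact permutation test of 1 region could not go below p = 0.1 (two-sided), and none was run. A further cell type marker is not reported here.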

Additional observations from a re-analysis of the deposited data

How the results depend on the processing

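Depth and replicate spread set the limits: the highest count at a SOX region was 615 reads, 3 libraries made a group, and combo replicate 3 differed from its group. In osi_DTP against DMSO, the 1 called SOX region became 2 with DESeq2, 7 with voom and library weights, 3 when annotated regions alone were fitted and 6 when the 2 groups compared were fitted alone. Calls over all regions moved too, from 8814 higher and 8107 lower of 157919 to 12497 and 15406 with DESeq2 and 26568 and 23598 with voom. They were 5139 and 5656 of 67387 with annotated regions alone, and 19930 and 18728 of 146480 with the 2 groups alone. The count of called SOX regions ranged from 0 to 6 when 1 library was left out, with 0 without any 1 DMSO replicate or without osi_DTP replicate 2, and 6 without combo replicate 3. Over all regions 668 were called higher and 482 lower without DMSO replicate 2, and 22942 and 20489 without combo replicate 3. In combo against DMSO, the 4 called regions became 8 with DESeq2 and 10 with voom, and ranged from 1 to 7 when 1 library was left out (2, 1 and 2 without DMSO replicate 1, 2 or 3, and 7 without combo replicate 3). Over all 157919 regions the calls went from 14286 higher and 14232 lower to 20355 and 18870 with DESeq2 and 37611 and 39221 with voom. They were 3943 and 4526 without DMSO replicate 2, and 29786 and 27986 without combo replicate 3. Of the gene sums, the 1 called in osi_DTP became 2 with DESeq2, 0 with a loess offset, 3 with voom and 2 with the 2 groups alone, and 0 to 2 when 1 library was left out. Over all sums the osi_DTP calls were 1596 higher and 1989 lower with DESeq2, and 1091 and 974 with a loess offset. They were 4126 and 4095 with voom, and 2172 and 2341 with the 2 groups alone. The 2 SOX sums called in combo against DMSO became 4 with voom and 1 with the 2 groups alone, and 0 to 4 when 1 library was left out. Over all sums the combo calls were 5106 higher and 5393 lower with voom, and 854 and 1311 with the 2 groups alone. In combo against osi_DTP, 0 SOX regions and sums were called under every alternative run. The cause of these differences was not tested.

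With the replicate block, 1 region and 0 sums were called in osi_DTP and 3 regions and 1 sum in combo against DMSO. The lost combo calls were the SOX4 region at +523 bp (1.63, adjusted p = 0.0971) and the SOX4 promoter sum (1.43, adjusted p = 0.0599). The block changed no other call at the SOX regions and sums than these and that of the SOX4 distal sum in osi_DTP, and it moved the calls within 200 kb of SOX4 from 8 to 7 higher in osi_DTP and from 12 higher and 4 lower to 10 and 3 in combo. The SOX4 region at +523 bp was also lost with a loess offset (adjusted p = 0.0522). The SOX13 region at −15477 bp was called lower in osi_DTP with DESeq2, with voom, with annotated regions alone and with the 2 groups alone.

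The values that changed sign were called neither before nor after the change. In osi_DTP against DMSO the SOX13 region at its start (0.07) was −0.036 with DESeq2, −0.19 by library size, −0.11 with a loess offset, −0.15 with the replicate block, −0.76 with voom and −0.13 with annotated regions alone, and −0.97 to 0.51 with 1 library left out. The SOX6 promoter region was −0.0055 and its sum −0.020 with DESeq2 (−0.078 to 0.37 and −0.19 to 0.18 with 1 library left out). With voom the SOX9 regions at +59 and +1630 bp were −0.13 and −0.073 and the SOX9 promoter sum −0.11 (−0.35 to 0.94, −0.12 to 0.52 and −0.17 to 0.35 with 1 library left out). The SOX13 regions at +320 and +6995 bp ranged from −0.80 to 0.015 and from −0.43 to 0.32.

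In combo against DMSO the SOX13 region at its start was −0.16 by library size and −0.21 with voom (−0.30 to 0.25 with 1 library left out), and the SOX13 region at +320 bp was 0.16 with a loess offset (−0.75 to 0.092). With 1 library left out, the SOX13 regions at −8937 and +6995 bp ranged from −0.65 to 0.17 and from −0.096 to 0.70, the SOX9 regions at +59 and +1630 bp from −0.0086 to 1.33 and from −0.14 to 1.52, and the SOX9 promoter sum from −0.062 to 0.95.

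In combo against osi_DTP the SOX13 region at its start was −0.060 without the filter and −0.064 with counts corrected for saturation (−0.39 to 1.09 with 1 library left out), the SOX13 region at +320 bp was −0.0035 with voom (−0.40 to 0.69), and the SOX13 region at +1991 bp was 0.070 with DESeq2, 0.10 with a loess offset, 0.070 with the replicate block, 0.52 with voom and 0.017 with annotated regions alone (−0.43 to 0.53). The SOX13 promoter sum was −0.057 with promoters widened to 3 kb (−0.10 to 0.44), and the SOX4 promoter sum −0.048 with voom (−0.16 to 0.53). With 1 library left out, the SOX4 regions at −5547, −4867 and +523 bp ranged from −0.052 to 0.94, −0.27 to 0.89 and −0.43 to 0.91, the SOX9 regions at +59 and +1630 bp from −0.54 to 1.35 and −0.38 to 1.27, the SOX9 promoter sum from −0.23 to 0.80, and the SOX13 region at +6995 bp from −0.0011 to 0.88. Alternatives for the 200 kb neighbourhoods, the gene lists and named regions outside the 18 were added after seeing the data.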
